A study of Homo sapiens with 15 samples.

Results

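The genes described here are 50 genes of ribosome biogenesis: subunits and factors of RNA polymerase I, abundant proteins of the nucleolus, and proteins that modify ribosomal RNA or build either ribosomal subunit. They were chosen by name, with earlier results of these data known. Of the 50, 49 are named in a table of 18322 genes, and all 49 passed the filter on low values, which asked for 10 normalized reads in at least 3 libraries. UTP4 is not named there, but CIRH1A, its older symbol in RefSeq, is; its values are given where it is described and it is not counted among the 49. The libraries are of A375, a human melanoma line whose growth is driven by mutant BRAF, in 5 groups of 3 that the series calls biological triplicates. The groups are Resistant cells with the hairpin label shMYC2, Resistant cells with the hairpin label shMYC1, Parental cells with MYC T58A, Resistant cells and Parental cells. Resistant cells are a single clonal population that withstands PLX4720, an inhibitor of mutant BRAF, so differences from Parental carry no variation between independent resistant populations. T58A is a form of the transcription factor MYC that is degraded more slowly. The labels say neither how MYC T58A and the hairpins were delivered nor whether drug was present at harvest.

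Ribosomes are assembled in the nucleolus. RNA polymerase I transcribes the precursor of most ribosomal RNA, with UBTF and RRN3 at its promoter, and small nucleolar ribonucleoproteins (snoRNPs) then guide methylation (box C/D, with FBL) and pseudouridylation (box H/ACA, with DKC1) of the RNA. Assembly factors fold and cleave the precursor into the small and the large subunit. Genes of this programme are well known targets of MYC, which binds the canonical E-box CACGTG together with MAX.

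The level of MYC was examined first, since 3 of the groups are named for it. Its transcript had 7760.4, 8099.9 and 7589.5 normalized reads in the libraries labelled shMYC2, 459, 518 and 481 in those labelled shMYC1, 3612, 3425 and 3496 in MYC T58A, 329.8, 274 and 304 in Resistant and 436, 419 and 413 in Parental. Both hairpin labels thus stand on libraries with more MYC transcript than Resistant, 25.8-fold more for shMYC2 (adjusted p = 1.74e-20) and 1.61-fold more for shMYC1 (adjusted p = 4.43e-08). In MYC T58A, transcripts of the introduced gene and the endogenous one cannot be told apart. The libraries held 24222192 to 30399644 reads in genes. The libraries labelled shMYC2 stood apart, with 1636 to 1694 genes without a read, against 296 to 665 in the other 12. The correlation of their log2 values with those of the other 12 was 0.828 to 0.848, against 0.990 to 0.994 within groups. Against Resistant, their median log2 difference was -0.56 on chromosome X, -0.45 on 4, -0.43 on 19 and 0.55 on 21. Whether these libraries come from the Resistant clone, as their label says, was not tested. SOX10, counted here among the melanocyte markers, had 16.1, 18.8 and 23.5 normalized reads in the libraries labelled shMYC2, 13181, 11458 and 11031 in those labelled shMYC1, 11, 9.35 and 7.05 in MYC T58A, 9.6, 4.7 and 8.19 in Resistant and 5453, 5178 and 5215 in Parental. The summed level of the 6 melanocyte markers in the table was 191 to 244 normalized reads in the libraries labelled shMYC2, 13098 to 15464 in those labelled shMYC1, 3579 to 3974 in MYC T58A, 3549 to 3988 in Resistant and 6801 to 7102 in Parental. Most of that sum is SOX10 and MITF, a regulator of melanocyte genes, and MITF did not follow SOX10: it had 152, 169 and 197 normalized reads in the libraries labelled shMYC2, 1753, 1529.6 and 1576 in those labelled shMYC1, 3808, 3538 and 3431 in MYC T58A, 3779, 3963 and 3500.4 in Resistant and 1511, 1508 and 1508 in Parental. The summed level of the 8 fibroblast markers was 2428 to 2523 normalized reads in the libraries labelled shMYC2, 335 to 348 in those labelled shMYC1, 360.5 to 431 in MYC T58A, 3711 to 3925 in Resistant and 352 to 413 in Parental. That sum hides opposite changes between the libraries labelled shMYC2 and Resistant. Of the 8 markers, 2 were called higher and 4 lower there, with log2 differences from -9.33 (LUM) to 9.66 (THY1). For SOX10 and the sum of the fibroblast markers the libraries labelled shMYC1 were closer to Parental than to Resistant, from which their label derives them. The part of these lineage differences in the results below was not tested, and in bulk RNA fewer cells with a transcript cannot be told apart from less of it in each cell.

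The canonical E-box was looked for in RefSeq promoter windows of GRCh38.p14, each running from 250 bases before the transcription start to 50 bases after it. CACGTG is its own reverse complement, so a match counts on both strands. A window was listed for 40 of the 49 genes, and 20 of the 40 (50%) held at least 1 match, against 12.2% of the 11415 other tested genes and 8.77% of all 27305 genes in the RefSeq table. With the first listed window of each gene alone, 16 of 40 (40%) held a match, a share that was not taken for other genes. Most of the matches sat at the start of the gene: 18 of 21 (85.7%) lay within 50 bases of the transcription start, against 637 of 1686 (37.8%) in the other tested genes. The sequences below, picked after their values were seen, show this placement in genes that were higher in MYC T58A (NAT10, WDR43, RRP9, NOP10, PNO1 and FBL), in a gene that was higher with no match (POLR1A), and in genes that were lower although they hold a match (MRTO4 and GNL2). Each runs 5′ to 3′ along the gene's strand from 150 bases before the start to 20 bases after it, with CACGTG in capitals.
NAT10, chr11:34105479-34105648 (plus strand): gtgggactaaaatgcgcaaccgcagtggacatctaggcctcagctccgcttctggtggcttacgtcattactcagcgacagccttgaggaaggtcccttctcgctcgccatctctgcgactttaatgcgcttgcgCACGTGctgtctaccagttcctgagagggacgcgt
WDR43, chr2:28894517-28894686 (plus strand): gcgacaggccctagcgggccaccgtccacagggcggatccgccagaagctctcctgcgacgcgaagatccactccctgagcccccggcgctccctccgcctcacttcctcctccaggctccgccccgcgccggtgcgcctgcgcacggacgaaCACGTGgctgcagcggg
RRP9, chr3:51941885-51942054 (minus strand): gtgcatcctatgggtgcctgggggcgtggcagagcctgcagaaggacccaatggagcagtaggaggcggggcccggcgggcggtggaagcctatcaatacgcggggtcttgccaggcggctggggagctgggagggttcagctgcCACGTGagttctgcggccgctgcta
NOP10, chr15:34343117-34343286 (minus strand): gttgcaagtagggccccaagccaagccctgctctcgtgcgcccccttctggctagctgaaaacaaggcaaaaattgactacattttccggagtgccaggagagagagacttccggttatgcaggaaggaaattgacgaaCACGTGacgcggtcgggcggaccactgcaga
PNO1, chr2:68157738-68157907 (plus strand): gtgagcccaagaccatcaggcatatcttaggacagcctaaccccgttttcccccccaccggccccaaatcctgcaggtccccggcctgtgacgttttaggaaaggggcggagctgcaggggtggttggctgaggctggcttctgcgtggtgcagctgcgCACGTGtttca
FBL, chr19:39846360-39846529 (minus strand): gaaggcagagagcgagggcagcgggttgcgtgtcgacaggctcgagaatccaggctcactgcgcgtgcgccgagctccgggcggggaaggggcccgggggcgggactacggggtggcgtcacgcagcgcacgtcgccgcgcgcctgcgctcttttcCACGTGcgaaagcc
POLR1A, chr2:86105867-86106036 (minus strand): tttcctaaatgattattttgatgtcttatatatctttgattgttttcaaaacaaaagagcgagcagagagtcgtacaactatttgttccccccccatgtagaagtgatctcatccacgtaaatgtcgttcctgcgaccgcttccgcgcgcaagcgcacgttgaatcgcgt
MRTO4, chr1:19251655-19251824 (plus strand): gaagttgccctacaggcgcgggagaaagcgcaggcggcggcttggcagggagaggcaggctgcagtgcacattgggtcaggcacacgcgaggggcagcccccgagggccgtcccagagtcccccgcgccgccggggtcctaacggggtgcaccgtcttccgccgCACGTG
GNL2, chr1:37595918-37596087 (minus strand): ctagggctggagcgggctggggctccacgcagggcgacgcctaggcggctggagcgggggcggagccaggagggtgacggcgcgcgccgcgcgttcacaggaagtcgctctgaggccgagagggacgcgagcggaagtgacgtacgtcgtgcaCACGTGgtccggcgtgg
The first base of the match lay at -15 in NAT10, 4 in WDR43, -5 in RRP9, -11 in NOP10, 10 in PNO1, 7 in FBL, 15 in MRTO4 and 4 in GNL2, counted from the transcription start. A second match of NOP10, at -170, lies outside the stretch shown.

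**Figure D1:**
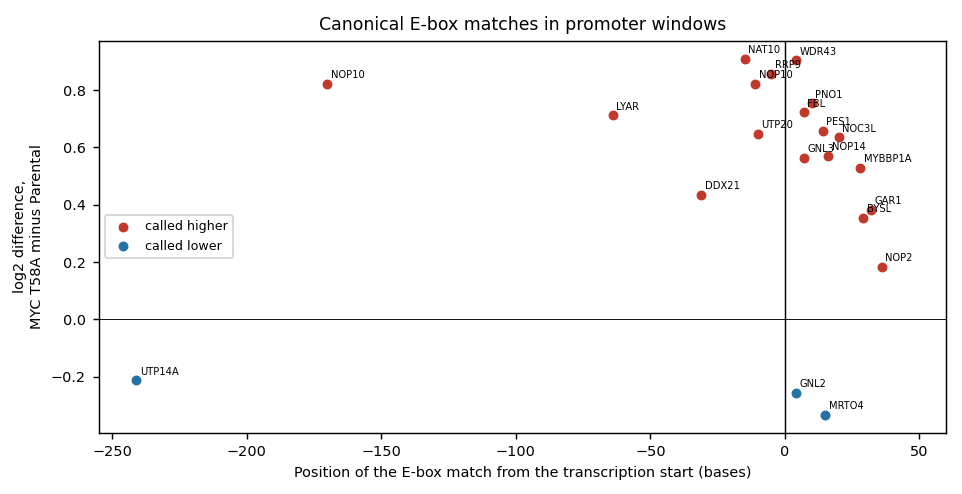
Position of each canonical E-box match in the promoter windows (x axis, bases from the transcription start) against the log2 difference of that gene between MYC T58A and Parental (y axis); red points were called higher and blue points lower. Of the 21 matches in 20 genes, 18 lie within 50 bases of the start, and UTP14A, NOP10 and LYAR hold the matches farther out.

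A match did not separate genes that were higher in MYC T58A from those that were lower: 17 of 32 higher genes (53.1%) and 3 of 6 lower genes (50%) held one, against 13.7% and 11.5% of the other tested genes. In MYC T58A the size of the difference was larger on the side with a match. Against Parental, the 20 genes with a match had a median log2 difference of 0.60 in MYC T58A and the 20 without one had 0.23. Between the libraries labelled shMYC2 and Resistant the order was the other way, with a median log2 difference of 0.049 with a match and 0.32 without. It was the other way too for those labelled shMYC1 against Resistant (0.23 with, 0.34 without). The medians with and without a match were -0.16 and -0.23 in Resistant against Parental. They were 0.14 and 0.088 in shMYC1-labelled libraries against Parental, and -0.72 and -0.44 in shMYC2-labelled libraries against MYC T58A. These medians describe chosen genes and carry no test.

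MYC T58A libraries held more transcript of most of these genes than any other group. Reads in the 49 genes made up 1.06% ± 0.015 of all reads in the libraries labelled shMYC2, 1.26% ± 0.042 in those labelled shMYC1, 1.66% ± 0.035 in MYC T58A, 1.135% ± 0.038 in Resistant and 1.25% ± 0.0096 in Parental (SD, n = 3 each). The mean normalized read count was highest in MYC T58A for 32 of the 49 genes, and for 27 of these every MYC T58A library lay above all 12 others. It was highest in the libraries labelled shMYC2 for 7 genes, in those labelled shMYC1 for 5, in Resistant for 2 (RRN3 and UTP14A) and in Parental for 3 (NOC2L, MRTO4 and PA2G4). The lowest mean fell to Resistant for 23 genes and to the libraries labelled shMYC2 for 18, and for all of these 18 the libraries labelled shMYC2 lay below all others. Neither the group of the highest or lowest mean nor separation from all other libraries was counted over all tested genes. These counts therefore stand without a background share. Between 2 groups alone, which is a weaker demand, separation was common: 72.7% of all tested genes in MYC T58A against Parental and 81.3% in shMYC2-labelled libraries against Resistant. The widest range between group means was that of BOP1, 1444 ± 119 normalized reads in the libraries labelled shMYC2, 615 ± 110 in those labelled shMYC1, 850.3 ± 131 in MYC T58A, 328 ± 85.6 in Resistant and 369 ± 6.26 in Parental. The narrowest was that of NOP58, a core box C/D protein, which averaged 6982 ± 84.6 normalized reads in the libraries labelled shMYC2, 6267 ± 270 in those labelled shMYC1, 6913 ± 216 in MYC T58A, 6503 ± 446 in Resistant and 6409.8 ± 97.1 in Parental.

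**Figure D2:**
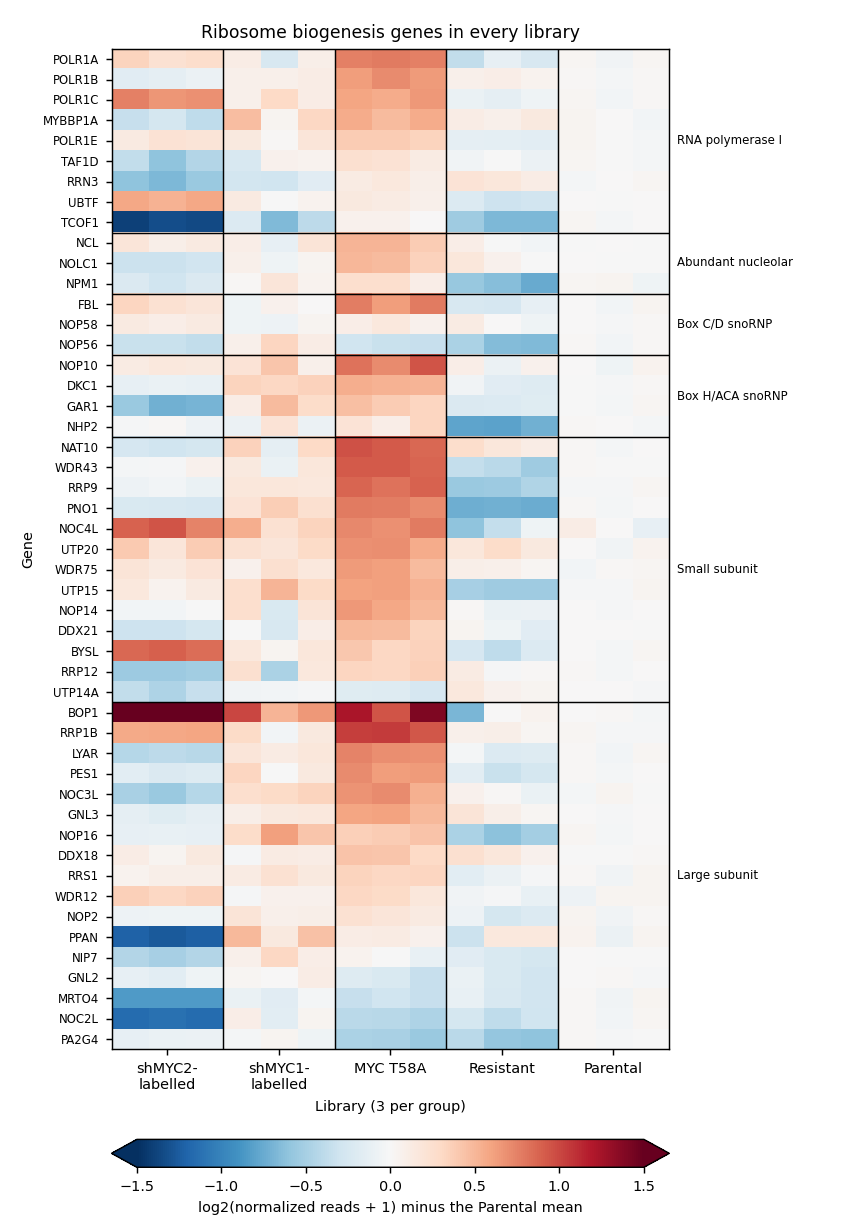
Log2(normalized reads + 1) of each of the 49 genes (rows, by role) in each of the 15 libraries (columns), minus the mean of the Parental libraries; red is higher and blue lower. MYC T58A columns are red in nearly every row, with UTP14A, NOP56, GNL2, MRTO4, NOC2L and PA2G4 blue, and the libraries labelled shMYC2 are split between red (BOP1, NOC4L, BYSL) and blue (TCOF1, PPAN, NOC2L).

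MYC T58A against Parental sets parental cells that carry a stable MYC beside parental cells without it. The groups also differ in lineage markers, since SOX10 was lower in MYC T58A (log2 difference -9.04, adjusted p = 1.56e-15), about as far as in Resistant against Parental (-9.33), and its part in the values below was not tested. Of the 49 genes, 39 (79.6%) were called higher and 6 (12.2%) lower in MYC T58A at an adjusted p under 0.05 in limma, against 30.1% and 33.7% of all tested genes. Their median log2 difference was 0.43, against -0.02 over all tested genes. For 47 of the 49 the groups did not overlap in any library, against 72.7% of all tested genes. With 3 libraries in each group, the smallest p an exact two-sided permutation test allows is 0.1. By role, 8 of 9 polymerase I genes, all 3 abundant nucleolar genes, all 4 box H/ACA genes, 12 of 13 small-subunit genes and 11 of 17 large-subunit genes were called higher. Of the 3 box C/D genes 1 was called higher (FBL) and 1 lower (NOP56), and NOP58 was not called. The 6 that fell were PA2G4, NOC2L, MRTO4, NOP56, GNL2 and UTP14A, 4 of them large-subunit factors.

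Among the polymerase I genes, POLR1A and POLR1B encode the pair of subunits that form the catalytic core. POLR1A had 7067, 7142 and 7061 normalized reads in MYC T58A, against 4269.5, 4012 and 4255 in Parental (1.7-fold; log2 difference 0.76, SE 0.077, adjusted p = 1.44e-07). POLR1B had 4945, 5223 and 4969 normalized reads in MYC T58A, against 3227, 3121 and 3226 in Parental (1.58-fold; log2 difference 0.66, SE 0.04, adjusted p = 1.34e-10). Neither gene overlapped between the groups. POLR1C, a subunit shared with RNA polymerase III, and POLR1E, a subunit of polymerase I alone, were higher by 0.60 and 0.37 on the log2 scale. The factors that bring the enzyme to its promoter differed far less. UBTF, which binds the ribosomal DNA, had 6398, 6279 and 6088 normalized reads in MYC T58A, against 5787, 5741 and 5833 in Parental (log2 difference 0.11, SE 0.044, adjusted p = 0.034). RRN3, which links the polymerase to the promoter, had 3305, 3368 and 3222 normalized reads in MYC T58A, against 2956, 3046 and 3081 in Parental (log2 difference 0.12, SE 0.047, adjusted p = 0.0303). Their libraries did not overlap either, but both calls were lost on leaving out single libraries, UBTF in 5 of the 6 cases (log2 difference 0.095 to 0.13) and RRN3 in 4 of 6 (0.11 to 0.14). TAF1D, of the promoter selectivity factor, was higher by 0.20 and MYBBP1A, a nucleolar partner of the polymerase, by 0.53. TCOF1, the treacle protein that binds UBTF in the nucleolus, was the exception, at 12073, 12148 and 11657 normalized reads in MYC T58A and 11778, 11368 and 11572 in Parental (log2 difference 0.047, SE 0.079, adjusted p = 0.623).

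Genes of the abundant nucleolar proteins and of the snoRNP core moved to different extents, 8 of 10 of them upwards. NCL, nucleolin, had 79229, 78971 and 72282 normalized reads in MYC T58A, against 55176, 55823 and 55466 in Parental (1.38-fold; log2 difference 0.47, SE 0.062, adjusted p = 3.69e-06). NPM1, the nucleolar chaperone nucleophosmin, had 30764, 30599 and 27706 normalized reads in MYC T58A, against 26197, 26490.5 and 24624 in Parental (1.15-fold; log2 difference 0.20, SE 0.057, adjusted p = 0.00471). Both were higher in all 3 MYC T58A libraries, NCL by the larger factor, and NOLC1, a chaperone of snoRNPs, was higher by 0.44 on the log2 scale. FBL, the methyltransferase of the box C/D particle, had 20339, 18469 and 20512 normalized reads in MYC T58A, against 12035, 11601 and 12271 in Parental (1.65-fold; log2 difference 0.72, SE 0.053, adjusted p = 1.6e-09). Its partners did not follow it, for NOP58 had a log2 difference of 0.11 (adjusted p = 0.0597) and NOP56 fell. Transcripts of all 4 core proteins of the box H/ACA particle rose. DKC1, its pseudouridine synthase, had 9898, 9804 and 9713 normalized reads in MYC T58A, against 6799, 6741 and 6894 in Parental (1.44-fold; log2 difference 0.53, SE 0.04, adjusted p = 2.78e-09). The log2 difference was 0.82 for NOP10, 0.38 for GAR1 and 0.21 for NHP2. NPM1, NCL and RRN3 have pseudogene rows in the table, and reads shared with a near-identical copy are uncertain; the row of NPM1P27 held at most 670 normalized reads.

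**Figure D3:**
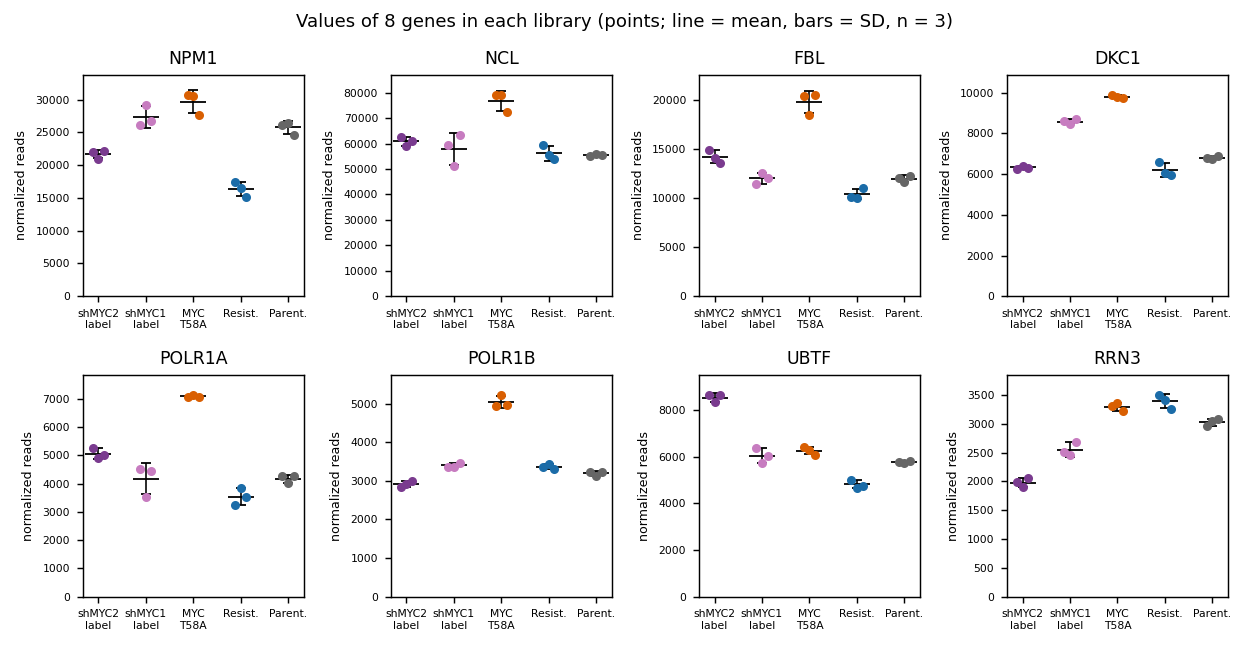
Normalized reads (y axes, from 0) of NPM1, NCL, FBL, DKC1, POLR1A, POLR1B, UBTF and RRN3 in each library of the 5 groups (points), with the mean and SD of 3 libraries. The MYC T58A points lie above all others for NCL, FBL, DKC1, POLR1A and POLR1B, UBTF is highest in the libraries labelled shMYC2, and RRN3 is lowest there.

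Among the assembly factors, the 5 largest rises in MYC T58A were those of BOP1, RRP1B, NAT10, WDR43 and RRP9. BOP1, which works in a complex with PES1 and WDR12 on the large subunit, had 862, 714 and 976 normalized reads in MYC T58A, against 372, 374 and 362 in Parental (2.3-fold; log2 difference 1.19, SE 0.18, adjusted p = 6.26e-05). RRP1B, a nucleolar large-subunit factor, had 7011, 7040.3 and 6508 normalized reads in MYC T58A, against 3491, 3371 and 3386 in Parental (2.01-fold; log2 difference 1.00, SE 0.06, adjusted p = 1.08e-10). The groups were far apart for both genes. NAT10, which acetylates ribosomal RNA, had 9682, 9494 and 9066 normalized reads in MYC T58A, against 5077, 4909 and 5032 in Parental (1.88-fold; log2 difference 0.91, SE 0.089, adjusted p = 1.96e-07). WDR43, of the early small-subunit processome, had 11151, 11134 and 10752 normalized reads in MYC T58A, against 5936, 5838 and 5860.0 in Parental (1.87-fold; log2 difference 0.91, SE 0.062, adjusted p = 6.1e-10). RRP9, a protein of the U3 snoRNP, had 4335, 4172 and 4371 normalized reads in MYC T58A, against 2349, 2337 and 2422 in Parental (1.81-fold; log2 difference 0.86, SE 0.042, adjusted p = 5.63e-12). All 3 encode proteins that act on the small subunit and hold an E-box match at their start. The partners of BOP1 rose as well, PES1 by 0.66 and WDR12 by 0.26 on the log2 scale. Within the small-subunit processome the log2 difference was 0.65 for UTP20, 0.58 for UTP15, 0.58 for WDR75 and 0.57 for NOP14, and CIRH1A, outside the 49, had 0.47. Of the helicases DDX21 had 0.43 and DDX18 0.38, and of the nucleolar GTPases GNL3 had 0.56 while GNL2 had -0.26. The rise of the small-subunit export factor RRP12 was 0.33, with the widest error of that role (SE 0.13, adjusted p = 0.0437). That error is estimated over all groups, and RRP12 spread most in the libraries labelled shMYC1. Its SD was 1440.5 normalized reads there, 104 in MYC T58A and 92.5 in Parental, and the last 2 groups did not overlap.

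The genes that fell in MYC T58A were fewer and fell by less. PA2G4, which binds ribosomes and is also known as EBP1, had 7616, 7552 and 7157 normalized reads in MYC T58A, against 10715, 10398 and 10553 in Parental (1.42-fold lower; log2 difference -0.50, SE 0.05, adjusted p = 7.53e-08). NOC2L, a large-subunit factor, had 8214, 8101 and 7892 normalized reads in MYC T58A, against 10966, 10504 and 11069 in Parental (1.34-fold lower; log2 difference -0.43, SE 0.055, adjusted p = 2.51e-06). MRTO4, which holds the place of the stalk on the nascent large subunit, had 3634, 3760.1 and 3646 normalized reads in MYC T58A, against 4682, 4462 and 4771 in Parental (1.26-fold lower; log2 difference -0.33, SE 0.05, adjusted p = 1.28e-05). In each of them the groups did not overlap. NOP56 had 8418, 8278 and 8165 normalized reads in MYC T58A, against 10528, 10138 and 10526 in Parental (1.25-fold lower; log2 difference -0.33, SE 0.057, adjusted p = 7.5e-05). GNL2 had 4879, 4755 and 4417 normalized reads in MYC T58A, against 5622, 5643 and 5510.4 in Parental (1.19-fold lower; log2 difference -0.26, SE 0.052, adjusted p = 0.000326). UTP14A, of the small-subunit processome, fell by least, with a log2 difference of -0.21 (adjusted p = 0.000371), and it has a near-identical copy, UTP14C.

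The genes that fell sit in stretches of the genome where other genes fell too. For each gene the median log2 difference of up to 25 tested genes on either side of it was taken, in the gene order of RefSeq GRCh38.p14, which was used for order alone. Near a chromosome end fewer neighbours were available, 31 for NOC2L, 37 for DKC1, 40 for NOC4L and 47 for NOP56. In MYC T58A against Parental, 5 of the 6 genes that fell had neighbours whose median was at or below -0.3: PA2G4 (-0.79), GNL2 (-0.49), MRTO4 (-0.45), NOP56 (-0.40) and NOC2L (-0.33). Of the other 43 genes only TCOF1 had such neighbours (-0.47), and it was not called. With the median of its neighbours taken off, PA2G4 stood at 0.29, GNL2 at 0.23, MRTO4 at 0.12, NOP56 at 0.075, NOC2L at -0.10 and TCOF1 at 0.52. UTP14A was the exception, at -0.21 among neighbours at 0.14. All 39 genes that rose had neighbours with medians between -0.3 and 0.3, and over all 49 the median with the neighbours taken off was 0.45. Chromosome 1 as a whole, which holds NOC2L, MRTO4 and GNL2, had a median log2 difference of -0.45 over 1484 tested genes, and chromosome 20, with NOP56, had -0.39 over 374. How many of all tested genes, or of all genes called lower or higher, have such neighbours was not counted, in this comparison or in those below. The counts of genes with such neighbours therefore do not set these genes apart from others. The part of these stretches in the falls was not tested.

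**Figure D4:**
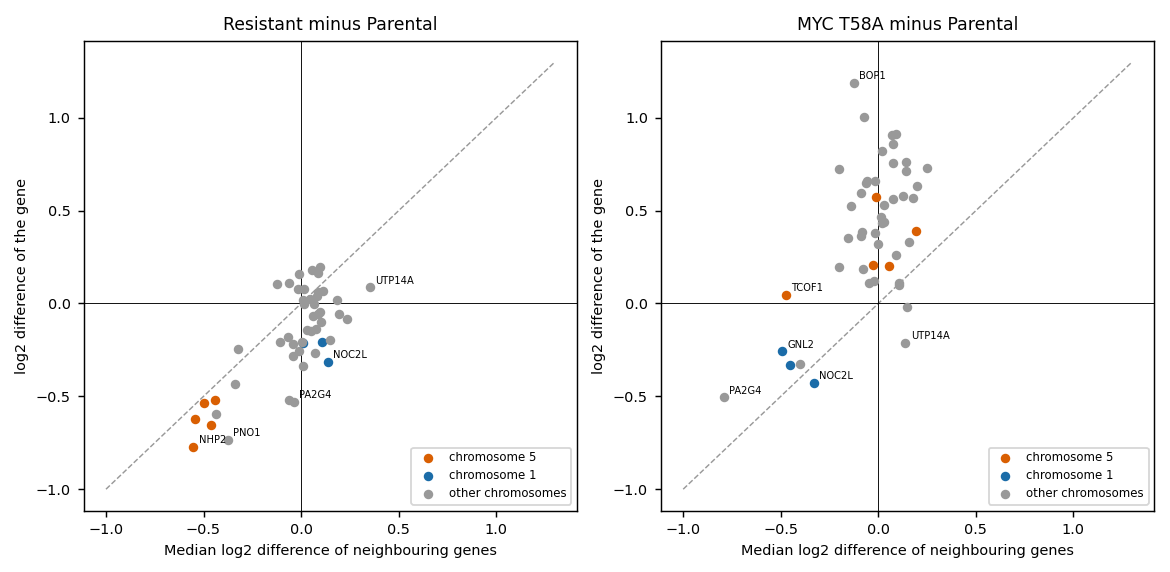
Log2 difference of each gene (y axes) against the median log2 difference of up to 25 tested genes on either side of it (x axes), in Resistant minus Parental (left) and MYC T58A minus Parental (right); the dashed line marks equality. On the right most genes stand above the line at neighbour medians near 0, while PA2G4, GNL2, MRTO4, NOP56, NOC2L and TCOF1 stand left of -0.3. On the left the 5 genes of chromosome 5 lie at neighbour medians of -0.44 to -0.55.

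Resistant against Parental asks how the resistant clone differs. Levels of many of these genes were lower in Resistant: 25 of 49 (51%) were called lower and 3 (6.12%) higher, against 24.4% and 27.2% of all tested genes. The median log2 difference was -0.14, against 0.009 over all tested genes, and the libraries did not overlap for 33 of the 49, against 63.5% of all tested genes. By role, lower calls fell on 4 of 9 polymerase I genes, 1 of 3 abundant nucleolar genes, 2 of 3 box C/D genes, 3 of 4 box H/ACA genes, 6 of 13 small-subunit genes and 9 of 17 large-subunit genes. RRN3, UTP20 and DDX18 were the 3 called higher.

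The largest falls in Resistant were those of NHP2, PNO1, NPM1, TCOF1 and NOP56. NHP2, of the box H/ACA core, had 2226, 2218 and 2332 normalized reads in Resistant, against 3891, 3889 and 3794 in Parental (1.71-fold lower; log2 difference -0.77, SE 0.068, adjusted p = 2.84e-08). PNO1, which acts late on the small subunit, had 1495, 1513 and 1481 normalized reads in Resistant, against 2528, 2439.6 and 2500.1 in Parental (1.66-fold lower; log2 difference -0.73, SE 0.045, adjusted p = 2.74e-10). NPM1 had 17429, 16500.1 and 15217 normalized reads in Resistant, against the Parental values above (1.57-fold lower; log2 difference -0.66, SE 0.057, adjusted p = 2.67e-08). In these 3 genes every Resistant library lay below every Parental library. TCOF1 had 8023, 7282 and 7258 normalized reads in Resistant, also below all Parental libraries (1.54-fold lower; log2 difference -0.62, SE 0.079, adjusted p = 4.76e-06). NOP56 had 7468, 6638 and 6578 normalized reads in Resistant, against 10528, 10138 and 10526 in Parental (1.51-fold lower; log2 difference -0.59, SE 0.057, adjusted p = 9.93e-08). Smaller falls included UBTF, with 5003, 4673 and 4751 normalized reads in Resistant (log2 difference -0.27, SE 0.044, adjusted p = 5.56e-05), FBL, with 10108, 10044 and 10997 (log2 difference -0.21, SE 0.053, adjusted p = 0.00327), and DKC1, with 6575, 6074 and 5958 (log2 difference -0.14, SE 0.04, adjusted p = 0.00842), all read against the Parental values above. POLR1A had 3235, 3843 and 3534 normalized reads in Resistant (log2 difference -0.24, SE 0.077, adjusted p = 0.0135), a call that was lost without Resistant library 1 (log2 difference -0.18). Neither POLR1B, with 3363, 3423 and 3311 normalized reads in Resistant (log2 difference 0.077, SE 0.04, adjusted p = 0.122), nor NCL, with 59329, 55408 and 53824 (log2 difference 0.017, SE 0.062, adjusted p = 0.845), was called, but with quantile normalization NCL was called higher (0.19, adjusted p = 0.00402).

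The rises in Resistant were small. UTP20, a scaffold of the small-subunit processome, had 5205, 5609 and 5130.0 normalized reads in Resistant, against 4637, 4475 and 4803 in Parental (1.15-fold; log2 difference 0.20, SE 0.058, adjusted p = 0.00893). RRN3 had 3504, 3419 and 3263 normalized reads in Resistant, against 2956, 3046 and 3081 in Parental (1.12-fold; log2 difference 0.16, SE 0.047, adjusted p = 0.00717). DDX18 had 8369, 7975 and 7411 normalized reads in Resistant, against 7038, 7066 and 7158 in Parental (1.12-fold; log2 difference 0.16, SE 0.053, adjusted p = 0.0192). Leaving out single libraries ended the call of DDX18 in 4 of 6 cases (log2 difference 0.12 to 0.21) and that of UTP20 without Resistant library 2 (0.16), and the number of genes called higher then ranged from 1, without Resistant library 2, to 4.

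Here too the largest falls came with their neighbours. All 5 of the genes on chromosome 5 fell: NHP2 stood at -0.77 among neighbours at -0.55, NPM1 at -0.66 among -0.46, TCOF1 at -0.62 among -0.54, NOP16 at -0.54 among -0.50 and UTP15 at -0.52 among -0.44 (log2 differences). The median over all 716 tested genes of chromosome 5 was -0.49. NOP56 on chromosome 20 had neighbours at -0.44, and on chromosome 2 PNO1 had -0.37, WDR43 -0.34 and POLR1A -0.33. In all, 9 of the 25 genes that fell had neighbours at or below -0.3; their median log2 difference was -0.59, and -0.097 with the neighbours taken off. The other 16 had a median of -0.22, and -0.24 with the neighbours taken off. Of the genes called lower, those that stood 0.3 or more below their neighbours were PA2G4 (-0.49 with the neighbours taken off), RRP9 (-0.46), NOC2L (-0.45), PNO1 (-0.36), NOC4L (-0.35), GAR1 (-0.35), UBTF (-0.34) and GNL2 (-0.31). The median over all 49 was -0.15 with neighbours taken off, close to the -0.14 without that step.

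**Figure D5:**
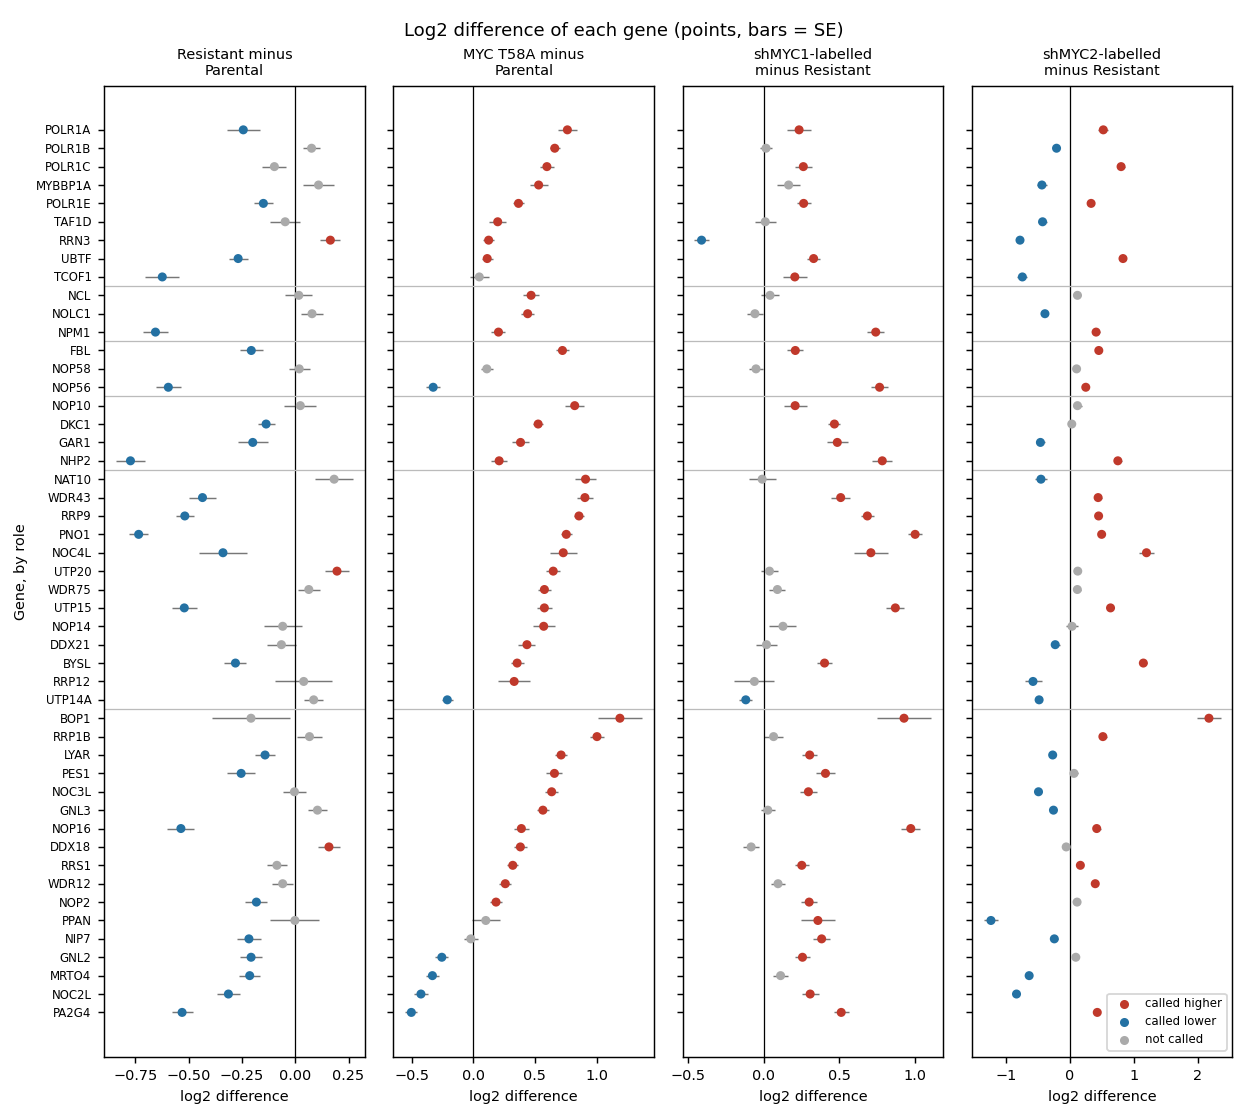
Log2 difference of each of the 49 genes (points, by role, with SE bars) in Resistant minus Parental, MYC T58A minus Parental, libraries labelled shMYC1 minus Resistant and libraries labelled shMYC2 minus Resistant; red was called higher, blue lower and grey was not called, and the x axes differ. Red fills the MYC T58A panel (39 of 49) and most of the shMYC1 panel (30), blue fills much of the Resistant panel (25), and the shMYC2 panel is split (20 red, 18 blue).

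The libraries labelled shMYC1 against Resistant would by their label show what less MYC does in resistant cells, but MYC was higher in them. Of the 49 genes, 30 (61.2%) were called higher and 2 (4.08%) lower in the libraries labelled shMYC1, against 27.0% and 30.1% of all tested genes. The median log2 difference was 0.26, against -0.03 over all tested genes, and 28 genes did not overlap, against 60.1% of all tested genes. With quantile normalization the calls were 27 higher and 6 lower, and with total-count scaling 27 and 5. By role, higher calls went to 5 of 9 polymerase I genes, 1 of 3 abundant nucleolar genes, 2 of 3 box C/D genes, all 4 box H/ACA genes, 6 of 13 small-subunit genes and 12 of 17 large-subunit genes.

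The largest rises were those of PNO1, NOP16, BOP1, UTP15 and NHP2. PNO1 had 2862, 3209 and 2929.8 normalized reads in the libraries labelled shMYC1, against 1495, 1513 and 1481 in Resistant (2.01-fold; log2 difference 1.00, SE 0.045, adjusted p = 2.45e-12). NOP16, a large-subunit factor, had 2865, 3605 and 3154 normalized reads in the libraries labelled shMYC1, against 1693, 1535 and 1657 in Resistant (1.97-fold; log2 difference 0.97, SE 0.063, adjusted p = 3.85e-10). BOP1 had 738, 526 and 582 normalized reads in the libraries labelled shMYC1, against 229, 370.4 and 384 in Resistant (1.88-fold; log2 difference 0.93, SE 0.18, adjusted p = 0.000619). No library overlapped for these genes, though BOP1 spread widely within both groups. UTP15, of the early small-subunit processome, had 2139, 2572 and 2196 normalized reads in the libraries labelled shMYC1, against 1272, 1246 and 1246 in Resistant (1.84-fold; log2 difference 0.87, SE 0.059, adjusted p = 6.28e-10). NHP2 had 3642, 4432 and 3644 normalized reads in the libraries labelled shMYC1, against 2226, 2218 and 2332 in Resistant (1.73-fold; log2 difference 0.78, SE 0.068, adjusted p = 1.68e-08). NPM1 followed, with 26122, 29209 and 26762 normalized reads in the libraries labelled shMYC1 (log2 difference 0.74, SE 0.057, adjusted p = 3.67e-09). DKC1 had 8584, 8436 and 8682 normalized reads in those libraries (log2 difference 0.47, SE 0.04, adjusted p = 1.61e-08), FBL had 11466, 12530.3 and 11984 (log2 difference 0.21, SE 0.053, adjusted p = 0.00263) and UBTF had 6369.9, 5743 and 6026 (log2 difference 0.33, SE 0.044, adjusted p = 4.26e-06), and each was called higher than Resistant. With quantile normalization the log2 difference of FBL was 0.10 and its call was lost (adjusted p = 0.124). RRN3 fell, with 2507, 2454 and 2695 normalized reads in the libraries labelled shMYC1, against 3504, 3419 and 3263 in Resistant (1.33-fold lower; log2 difference -0.41, SE 0.047, adjusted p = 6.93e-07). UTP14A was called lower (log2 difference -0.12, SE 0.044, adjusted p = 0.0264), a call lost with edgeR, with the 2 groups alone, and on leaving out Resistant library 1 or library 1 labelled shMYC1 (log2 difference -0.084 and -0.11).

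Library 2 labelled shMYC1 stood furthest from the other 2 of its group and moved several of these genes. POLR1A had 4521, 3543 and 4455 normalized reads in the libraries labelled shMYC1 and 3235, 3843 and 3534 in Resistant (log2 difference 0.23, SE 0.077, adjusted p = 0.0153), with overlapping groups; its log2 difference was 0.35 without library 2, while the call was lost without library 1 or 3, without Resistant library 1 (0.17 to 0.18), with total-count scaling (0.16) and with the 2 groups alone. NCL had 59558, 51077 and 63323 normalized reads in the libraries labelled shMYC1 and 59329, 55408 and 53824 in Resistant (log2 difference 0.041, SE 0.062, adjusted p = 0.602); it was called higher without library 2 (0.13, adjusted p = 0.0228) and lower with quantile normalization (-0.19, adjusted p = 0.00394). POLR1B had 3369, 3368 and 3460.4 normalized reads in the libraries labelled shMYC1 and 3363, 3423 and 3311 in Resistant (log2 difference 0.014, SE 0.04, adjusted p = 0.783), likewise overlapping. Without library 2 the number of genes called higher rose to 36, the highest of the 6 counts with a library left out (27 to 36).

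Genes of chromosome 5 rose together here. Over the 716 tested genes of chromosome 5 the median log2 difference of the libraries labelled shMYC1 was 0.45 against Resistant and -0.045 against Parental. The 9 genes that had fallen in Resistant together with their neighbours all were called higher here, among neighbours at or above 0.3, with a median of 0.77, and 0.31 with the neighbours taken off. Both comparisons share the Resistant libraries. Over all 49 genes the median with neighbours taken off was 0.25.

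Set against Parental, the libraries labelled shMYC1 had 20 genes (40.8%) called higher and 2 (4.08%) lower, against 19.7% and 19.9% of all tested genes. The 2 lower genes were TCOF1 and RRN3. The median log2 difference was 0.12, and 25 genes did not overlap, against 50.7% of all tested genes. The count of higher genes moved with the processing: 12 higher and 3 lower were called with quantile normalization, 10 and 3 with total-count scaling, 12 higher without Parental library 2, and up to 24 with other libraries left out. BOP1 led, at 1.67-fold its Parental level (log2 difference 0.72, SE 0.18, adjusted p = 0.00647; library values above). NOP16 had 2865, 3605 and 3154 normalized reads in the libraries labelled shMYC1, against 2406, 2305 and 2367 in Parental (1.36-fold; log2 difference 0.44, SE 0.063, adjusted p = 2.84e-05). NOC4L, a partner of NOP14 on the small subunit, had 1126, 902 and 976 normalized reads in the libraries labelled shMYC1, against 835, 776 and 709 in Parental (1.3-fold; log2 difference 0.37, SE 0.11, adjusted p = 0.0154). The groups did not overlap for NOP16, while the margin of NOC4L was narrow and its call was lost on leaving out 2 of the 6 libraries in turn (log2 difference 0.28 to 0.44). PPAN had 425, 334 and 412 normalized reads in the libraries labelled shMYC1, against 314, 286 and 311 in Parental (1.29-fold; log2 difference 0.36, SE 0.12, adjusted p = 0.0202), and was lost in 3 of 6 cases (0.29 to 0.46). UTP15 had a log2 difference of 0.35 (adjusted p = 0.000129). TCOF1 had 10078, 7327 and 8796 normalized reads in the libraries labelled shMYC1, against 11778, 11368 and 11572 in Parental (1.33-fold lower; log2 difference -0.42, SE 0.079, adjusted p = 0.000494), and RRN3 was lower (log2 difference -0.25, adjusted p = 0.000443). Of the genes described throughout, DKC1 was higher (0.33, adjusted p = 3.9e-06), and NPM1 (0.086), NCL (0.058), FBL (0.0024), UBTF (0.062), POLR1A (-0.01) and POLR1B (0.091) were not called on the log2 scale.

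The libraries labelled shMYC2 had the highest MYC transcript of the series. Against Resistant, of the 49 genes 20 (40.8%) were called higher and 18 (36.7%) lower in the libraries labelled shMYC2, shares near the 36.2% and 43.0% of all tested genes. The median log2 difference was 0.11, against -0.08 over all tested genes, and it was -0.03 with quantile normalization and with total-count scaling, so its sign rests on the scaling. The libraries did not overlap for 40 of the 49, against 81.3% of all tested genes. The polymerase I genes all were called, 4 higher (UBTF, POLR1A, POLR1C and POLR1E) and 5 lower (POLR1B, RRN3, TAF1D, TCOF1 and MYBBP1A). Of the 13 small-subunit genes 6 were higher and 4 lower, and of the 17 large-subunit genes 6 were higher and 7 lower.

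BOP1 had 1507, 1519 and 1306 normalized reads in the libraries labelled shMYC2, against 229, 370.4 and 384 in Resistant (4.4-fold; log2 difference 2.17, SE 0.18, adjusted p = 7.52e-08). NOC4L had 1420.1, 1483 and 1295 normalized reads in the libraries labelled shMYC2, against 509, 604 and 738 in Resistant (2.27-fold; log2 difference 1.19, SE 0.11, adjusted p = 5.29e-08). BYSL, which acts on the small subunit, had 2742, 2803 and 2704 normalized reads in the libraries labelled shMYC2, against 1266, 1160.0 and 1305 in Resistant (2.21-fold; log2 difference 1.15, SE 0.052, adjusted p = 4.39e-13). None of these groups overlapped. UBTF had 8649.6, 8332 and 8634 normalized reads in the libraries labelled shMYC2, against 5003, 4673 and 4751 in Resistant (1.78-fold; log2 difference 0.83, SE 0.044, adjusted p = 4.42e-12). POLR1C had 1909.9, 1789 and 1823 normalized reads in the libraries labelled shMYC2, against 1059.7, 1032 and 1081 in Resistant (1.74-fold; log2 difference 0.80, SE 0.057, adjusted p = 3.09e-10). POLR1A had 5274, 4914 and 5012 normalized reads in the libraries labelled shMYC2, against 3235, 3843 and 3534 in Resistant (1.43-fold; log2 difference 0.52, SE 0.077, adjusted p = 7.29e-06). The transcripts of the polymerase core thus did not move as one, since POLR1B had 2832, 2915 and 2995 normalized reads in the libraries labelled shMYC2, below the Resistant values given above (1.15-fold lower; log2 difference -0.21, SE 0.04, adjusted p = 0.000124). NPM1 had 22090.3, 20948 and 22124 normalized reads in the libraries labelled shMYC2 (log2 difference 0.41, SE 0.057, adjusted p = 3.06e-06) and FBL had 14932, 14058 and 13586 (log2 difference 0.45, SE 0.053, adjusted p = 3.4e-07), and both were called higher than Resistant. NCL had 62756, 59075 and 61007 normalized reads (log2 difference 0.12, SE 0.062, adjusted p = 0.0923) and DKC1 had 6268, 6382 and 6322 (log2 difference 0.029, SE 0.04, adjusted p = 0.511), neither of them called. Both turned with the scaling: NCL was called lower with quantile normalization (-0.33, adjusted p = 1.05e-05) and not called with total-count scaling (-0.027), and DKC1 was called lower with quantile normalization (adjusted p = 0.00704) and with total-count scaling (adjusted p = 0.00856), at -0.12 in both. NCL was called higher with edgeR (0.14, adjusted p = 0.0463), with the 2 groups alone (adjusted p = 0.0248) and without Resistant library 1 (0.16, adjusted p = 0.0442).

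The largest falls in the libraries labelled shMYC2 were those of PPAN, NOC2L, RRN3, TCOF1 and MRTO4. PPAN, a large-subunit factor that overlaps a readthrough transcript with P2RY11, had 130.3, 126 and 129 normalized reads in the libraries labelled shMYC2, against 242, 339 and 338 in Resistant (2.39-fold lower; log2 difference -1.23, SE 0.12, adjusted p = 1.51e-08). NOC2L had 4855, 4992 and 4858 normalized reads in the libraries labelled shMYC2, against 9051, 8329 and 8818 in Resistant (1.78-fold lower; log2 difference -0.83, SE 0.055, adjusted p = 1.21e-10). RRN3 had 1986, 1900.3 and 2053 normalized reads in the libraries labelled shMYC2, against 3504, 3419 and 3263 in Resistant (1.71-fold lower; log2 difference -0.78, SE 0.047, adjusted p = 3.31e-11). Each of these groups stood clear of the other. TCOF1 had 4368, 4599.6 and 4521 normalized reads in the libraries labelled shMYC2, against 8023, 7282 and 7258 in Resistant (1.67-fold lower; log2 difference -0.74, SE 0.079, adjusted p = 1.78e-07). MRTO4 had 2575, 2579 and 2569.7 normalized reads in the libraries labelled shMYC2, against 4287, 3937 and 3789 in Resistant (1.56-fold lower; log2 difference -0.63, SE 0.05, adjusted p = 1.27e-09). Of the 18 lower genes 8, NOC2L, RRN3, PPAN and MRTO4 among them, had neighbours at or below -0.3, and of the 20 higher genes 8, BOP1, BYSL, UBTF, POLR1A and POLR1C among them, had neighbours at or above 0.3. With neighbours taken off, the median over the 49 genes was 0.0095.

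The 2 groups with the most MYC transcript can be set side by side. Of the 49 genes, 5 (10.2%) were called higher and 39 (79.6%) lower in the libraries labelled shMYC2 than in MYC T58A, against 36.8% and 42.5% of all tested genes. MYC transcript was 2.23-fold higher in the libraries labelled shMYC2, and these data hold no level of MYC protein. The part of MYC in these calls was not tested. The median log2 difference was -0.49, against -0.07 over all tested genes, and 46 of the 49 did not overlap, against 81.9% of all tested genes. With neighbours taken off the median was -0.54. All 4 box H/ACA genes, all 3 abundant nucleolar genes, 7 of 9 polymerase I genes, 11 of 13 small-subunit genes and 13 of 17 large-subunit genes were lower. Of the 3 box C/D genes only FBL was, and the median of that role was -0.02.

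TCOF1 had 4368, 4599.6 and 4521 normalized reads in the libraries labelled shMYC2, against 12073, 12148 and 11657 in MYC T58A (2.66-fold lower; log2 difference -1.41, SE 0.079, adjusted p = 3.35e-11). PPAN had 130.3, 126 and 129 normalized reads in the libraries labelled shMYC2, against 329, 330.3 and 316 in MYC T58A (2.53-fold lower; log2 difference -1.33, SE 0.12, adjusted p = 5e-09). NAT10 had 4218, 4069.8 and 4178 normalized reads in the libraries labelled shMYC2, against 9682, 9494 and 9066 in MYC T58A (2.27-fold lower; log2 difference -1.18, SE 0.089, adjusted p = 3.17e-09). All 3 were at less in every library labelled shMYC2 than in any MYC T58A library. NOC3L, a large-subunit factor, had 2851, 2708 and 2969.7 normalized reads in the libraries labelled shMYC2, against 6361, 6514 and 5786 in MYC T58A (2.19-fold lower; log2 difference -1.13, SE 0.055, adjusted p = 1.16e-12). LYAR, a nucleolar protein, had 2642, 2718 and 2667 normalized reads in the libraries labelled shMYC2, against 5972, 5763 and 5737 in MYC T58A (2.18-fold lower; log2 difference -1.12, SE 0.048, adjusted p = 1.87e-13). The log2 difference was -0.79 for POLR1B, -0.74 for RRN3, -0.63 for DKC1, -0.49 for POLR1A, -0.48 for FBL, -0.45 for NPM1 and -0.33 for NCL, all called lower. The 5 genes called higher were BOP1 (0.77, adjusted p = 0.00147), BYSL (0.51, adjusted p = 4.79e-08), UBTF (0.45, adjusted p = 2.9e-08), PA2G4 (0.40, adjusted p = 6.55e-07) and GNL2 (0.14, adjusted p = 0.0188) on the log2 scale. All 5 had neighbours at or above 0.3, and with the neighbours taken off they stood at 0.042, 0.0088, 0.068, -0.28 and -0.67 in that order. The call of GNL2 was lost on leaving out library 3 labelled shMYC2 or MYC T58A library 3 (0.11 and 0.10), and its sign turned with total-count scaling (-0.03).

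The rest of the pathway was read from 125 other genes of polymerase I, subunit assembly and snoRNP assembly, all of them tested. In MYC T58A against Parental 93 (74.4%) were called higher and 7 (5.6%) lower, against 30.1% and 33.7% of all tested genes, with a median log2 difference of 0.36. By list, 39 of 48 small-subunit genes, 39 of 50 large-subunit genes, 8 of 13 snoRNP assembly genes and 7 of 14 further polymerase I genes were higher. TSR3, which modifies the RNA of the small subunit, averaged 1969.6 ± 186 normalized reads in MYC T58A and 902 ± 22.6 in Parental (2.18-fold; log2 difference 1.12, SE 0.15, adjusted p = 1.42e-05). MDN1, the large ATPase of large-subunit maturation, averaged 3686 ± 204 normalized reads in MYC T58A and 1727 ± 74.1 in Parental (2.13-fold), and RSL24D1, also of the large subunit, 5756 ± 83.4 and 2860.4 ± 4.38 (2.01-fold). These rises were about as large as those of BOP1 and RRP1B. EIF6, which keeps the subunits apart until the large one is mature, fell to 5643 ± 220 normalized reads in MYC T58A, against 7643 ± 115 in Parental (1.36-fold lower), and KRR1 and RRP8 fell 1.31-fold and 1.23-fold.

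In Resistant against Parental 13 of the 125 (10.4%) were called higher and 44 (35.2%) lower, against 27.2% and 24.4% of all tested genes, with a median log2 difference of -0.056. DDX27, a helicase of the large subunit, fell to 2489 ± 198 normalized reads in Resistant, against 4707 ± 30.6 in Parental (1.89-fold lower; log2 difference -0.92, SE 0.081, adjusted p = 5.32e-08). TAF1B, of the promoter selectivity factor, fell 1.72-fold and NOL10, of the small subunit, 1.58-fold. The largest rises were those of DDX47, at only 22.2 ± 7.45 normalized reads in Resistant and 12.8 ± 1.58 in Parental, TAF1A (1.45-fold) and DIEXF (1.44-fold). The libraries labelled shMYC1 had 67 (53.6%) higher and 14 (11.2%) lower than Resistant, against 27.0% and 30.1% of all tested genes, led by CCDC86 (2.06-fold), NOL10 (1.74-fold) and RIOK2 (1.68-fold), with TAF1A (1.46-fold lower), DIEXF (1.45-fold lower) and HEATR1 (1.27-fold lower) at the other end. Those labelled shMYC2 had 56 (44.8%) higher and 38 (30.4%) lower than Resistant, against the 36.2% and 43.0% of all tested genes given above. RRP1, the paralogue of RRP1B, averaged 2607 ± 23 normalized reads in the libraries labelled shMYC2 and 853 ± 27.8 in Resistant (3.05-fold). HEATR1, a processome protein needed for transcription by polymerase I, fell to 4525 ± 218 normalized reads in the libraries labelled shMYC2, against 16650.1 ± 791 in Resistant (3.68-fold lower; log2 difference -1.88, SE 0.05, adjusted p = 2.09e-16), and TAF1A fell 4.34-fold and URB2 2.64-fold. The libraries labelled shMYC1 had 34 of the 125 (27.2%) higher and 9 (7.2%) lower than Parental, against 19.7% and 19.9% of all tested genes. Those labelled shMYC2 had 18 (14.4%) higher and 85 (68%) lower than MYC T58A, against 36.8% and 42.5%.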

How the data were processed

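Per the labels' protocols, A375 RNA came from a Qiagen RNeasy extraction, and Kapa's stranded mRNA kit was used for the libraries. Trim Galore, cutadapt, STAR, HTSeq and DESeq2 are named in the submitters' processing notes, with no version, and the build, annotation and counted strand were not given in the sources used here. As deposited by the authors, the table holds signal per gene symbol, which was found to be read counts divided by 1 size factor per library: 100% of values were whole multiples of a step (0.881 to 1.08, tolerance 0.01). They are called normalized reads here, and libraries are numbered in column order within their group.

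Values were taken as log2(value + 1), and a gene was tested if 3 or more libraries reached 10, which kept 17012 genes and dropped 1310. The model in limma 3.58.1 (R 4.3.3, trend and robust) had 1 mean per group and used the 15 libraries together. Benjamini-Hochberg adjustment ran over every tested gene, with 0.05 as the threshold for a call. Fold changes in the text are ratios of group means of normalized reads, and log2 differences are those of the fit, which understate the change of low genes. SE is the standard error of the log2 difference. The p-values rest on the spread between libraries of the same group, estimated once per gene over all 15 libraries. A gene therefore has the same SE in every comparison, and groups outside a comparison add to it. The test was run on simulated data with 200 changed genes and all others equal between groups. Far more genes were called in the real comparisons, so that run does not show how the test behaves there. Recovered reads were tested with edgeR 4.0.16 and DESeq2 1.42.0 as alternatives, beside quantile normalization, total-count scaling, no filter, a filter at 50, pseudocounts of 0.1 and 10, no robust fit, the 2 groups alone, no libraries labelled shMYC2, an adjusted p under 0.01, and each library left out. Taking off the median of neighbouring genes was added after the data were seen.

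The genes and gene lists were chosen with earlier results of these data known, so no list is tested. Library values are given for NPM1, NCL, FBL, POLR1A, POLR1B, UBTF, RRN3 and DKC1 and for the 5 called genes with the largest rise and fall in a comparison; from the rest of the pathway the 3 largest of each are named in 4 comparisons. All others are named by their log2 difference.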

Additional observations from a re-analysis of the deposited data

How the results depend on the processing

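Of the values that summarise a comparison, 294 of their values under alternatives were scored as unchanged, 28 moved and 2 reversed. Of those of single genes, 1668 were scored as unchanged, 50 lost a call, 6 gained one and 23 reversed. A count was scored as unchanged within a factor of 1.5, a median within the SD between single libraries, and a gene by sign and call alone. Some alternatives, such as an adjusted p under 0.01 or no robust fit, cannot alter a log2 difference. Part of the unchanged values was therefore fixed in advance, and the tally does not measure robustness. In Resistant against Parental, 5 genes were called higher with quantile normalization, 6 with the 2 groups alone and 1 to 4 with a library left out (3 in the main test); the median log2 difference of the 49 genes was -0.16 with edgeR and -0.15 to -0.12 with a library left out. In MYC T58A against Parental the median was 0.52 with quantile normalization, and 35 to 38 genes were called higher with a library left out. In the libraries labelled shMYC1 against Resistant, 6 genes were called lower with quantile normalization, 5 with total-count scaling, 1 with the 2 groups alone, with an adjusted p under 0.01 or with edgeR, and 1 to 2 with a library left out; the median was 0.21 with quantile normalization, 0.19 with total-count scaling and 0.25 to 0.30 with a library left out. In the libraries labelled shMYC2 against Resistant the median reversed to -0.03 with quantile normalization (-0.0297) and with total-count scaling (-0.0329), stood at 0.0095 with neighbours taken off and at 0.079 to 0.13 with a library left out. For the libraries labelled shMYC1 against Parental, 12 genes were called higher with quantile normalization, 10 with total-count scaling, 11 at an adjusted p under 0.01 and 12 to 24 with a library left out; the median was 0.049 with quantile normalization and 0.057 with total-count scaling. For the libraries labelled shMYC2 against MYC T58A the median was -0.74 with quantile normalization, -0.66 with total-count scaling and -0.54 with neighbours taken off. The cause of these changes was not tested, but scaling also moved the median of all tested genes: in the libraries labelled shMYC2 against Resistant it was -0.075, 0.15 with quantile normalization and -0.22 with total-count scaling, and against MYC T58A -0.065, 0.076 and -0.23 in the same order.

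Among single genes that changed sign, NCL was called lower with quantile normalization in both hairpin-labelled groups against Resistant, and DKC1 with quantile normalization and total-count scaling in the libraries labelled shMYC2 against Resistant; no other sign change passed the threshold. With quantile normalization NCL stood at -0.19 and POLR1B at -0.028 in the libraries labelled shMYC1 against Resistant, NCL at -0.33 and DKC1 at -0.12 in those labelled shMYC2 against Resistant, and NPM1 at -0.0065, FBL at -0.081 and UBTF at -0.015 in those labelled shMYC1 against Parental. With total-count scaling NCL stood at -0.030 and POLR1B at -0.056 in the first of these comparisons, NCL at -0.027 and DKC1 at -0.12 in the second, and NCL at -0.0037 and FBL at -0.059 in the third, while GNL2 stood at -0.030 in the libraries labelled shMYC2 against MYC T58A. With edgeR NCL stood at -0.0029 in Resistant against Parental. With a library left out NCL ranged from -0.023 to 0.047 in Resistant against Parental, from -0.026 to 0.13 in the libraries labelled shMYC1 against Resistant and from -0.0087 to 0.15 in those labelled shMYC1 against Parental, where FBL ranged from -0.030 to 0.034 and POLR1A from -0.072 to 0.10. No paired analysis was possible because the columns carry running numbers that match no replicate number in the labels. Each of the 49 genes held at least 121 reads in every library; counting error was not set against the spread between the 3 libraries of a group.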

Other observations

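The ribosomal proteins themselves, whose transcripts are also made for ribosome production, were read from a list of 77 genes of the cytosolic ribosome in the table, and went the other way from the biogenesis genes where MYC T58A was compared. In MYC T58A 3 (3.9%) were called higher and 41 (53.2%) lower than Parental, against 30.1% and 33.7% of all tested genes, with a median log2 difference of -0.23, against -0.02 over all tested genes. Of the same 77, the libraries labelled shMYC2 had 40 (51.9%) called higher and 6 (7.79%) lower than MYC T58A, against 36.8% and 42.5% of all tested genes, with a median of 0.26. In Resistant 3 (3.9%) were higher and 11 (14.3%) lower than Parental, both below the 27.2% and 24.4% of all tested genes. The libraries labelled shMYC1 had 22 (28.6%) higher and 1 (1.3%) lower than Resistant, against 27.0% and 30.1% of all tested genes, and 11 (14.3%) higher than Parental, against 19.7%. Those labelled shMYC2 had 32 (41.6%) higher and 10 (13%) lower than Resistant, against 36.2% and 43.0%. Many ribosomal proteins have processed pseudogenes, so how reads were shared among copies is uncertain.

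CIRH1A, the older symbol of UTP4, had 4274 ± 76 normalized reads in the libraries labelled shMYC2, 6216 ± 501 in those labelled shMYC1, 6083 ± 104 in MYC T58A, 4216 ± 114 in Resistant and 4386 ± 59 in Parental. MYC T58A was called higher than Parental, shMYC1-labelled libraries were called higher than Resistant and Parental, and shMYC2-labelled libraries were called lower than MYC T58A.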
